A study of Sus scrofa with 59 samples.

Results

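The CD antigens are leukocyte and other cell surface proteins that share the CD naming scheme. The genes described here are those whose symbol in the array's annotation is CD followed by a digit. CD14, CD68, CD163, CD93 and CD74 were left out by the same rule. The rule gave 38 genes of the 6765 with a symbol on the array, and the probe set with the highest mean stood for each gene. They were split by textbook roles into 10 T cell and NK cell genes, 2 B cell genes, 3 genes shared by most leukocytes, 9 myeloid or antigen-presenting genes and 14 non-immune or broadly expressed genes. RNA came from the longissimus dorsi, a long muscle of the back, of 59 pigs of a LD/LW x Duroc cross, raised together and aged 170 days at sampling, with 1 array per pig. Muscle was snap-frozen at slaughter, and all pigs formed 1 group with no treatment contrast. Trait values, sex and array batch of single pigs were not analysed here.

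CD antigens mark the cells that carry them. The CD3 chains and the zeta chain CD247 carry the signal of the T cell receptor, CD4 and CD8 are its co-receptors, and CD40, CD80 and CD86 are proteins by which antigen-presenting cells activate T cells. Other CD proteins, such as the tetraspanins, which organise membrane partners, and the complement regulators, sit on most cells, muscle fibres and vessel walls included. A muscle sample is mostly fibre, with scattered macrophages, few lymphocytes and many vessels.

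As a check of the labelled tissue, all 9 measured muscle fibre markers had means between 12.95 and 14.76 on the log2 scale. Of 11 measured macrophage markers 10 passed a filter on dim probe sets, which kept probe sets with a mean of at least 6.27 log2. Of 9 measured T and NK cell markers 1 passed it, of 3 B cell markers 1, and of 6 neutrophil markers 0, with neutrophil means from 3.92 to 5.80 log2. Arrays correlated with each other at 0.968 to 0.995 over probe sets. The array of pig 36 stood farthest from the rest, with a median correlation of 0.977, and those of pigs 52 and 37 came next, each with 0.984. Pig 72 and then pig 5 followed, each with 0.985. Pig 36 was among the 5 highest pigs for 13 of the 18 CD genes that passed the filter and pig 52 for 8 of 18. Pigs 36, 52 and 5 were also the 3 highest for CD46 and CD55. The results below are therefore given with and without pigs 5, 36 and 52 where leaving them out changed a call on a score. The choice of these pigs rested partly on the CD46 and CD55 values themselves. For those genes, leaving the pigs out is no independent check.

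Of the 38 CD genes, 18 passed the filter (47.4%), against 72.8% of all 6765 genes. No T cell or B cell gene passed: 0 of 10 T cell and NK cell genes and 0 of 2 B cell genes. Of the shared leukocyte genes 1 of 3 passed, of the myeloid and antigen-presenting genes 6 of 9, and of the non-immune or broad genes 11 of 14. Nearest to the filter were CD86 at 6.29 and CD53 at 6.36 log2 above it, and CD55 at 5.95 and CD3D at 5.90 log2 below it. Brightness differs between probe sets for reasons other than the amount of RNA, so these means place each gene against the filter and do not rank the genes. Differences of dim probe sets are compressed by the array method.

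**Figure D1:**
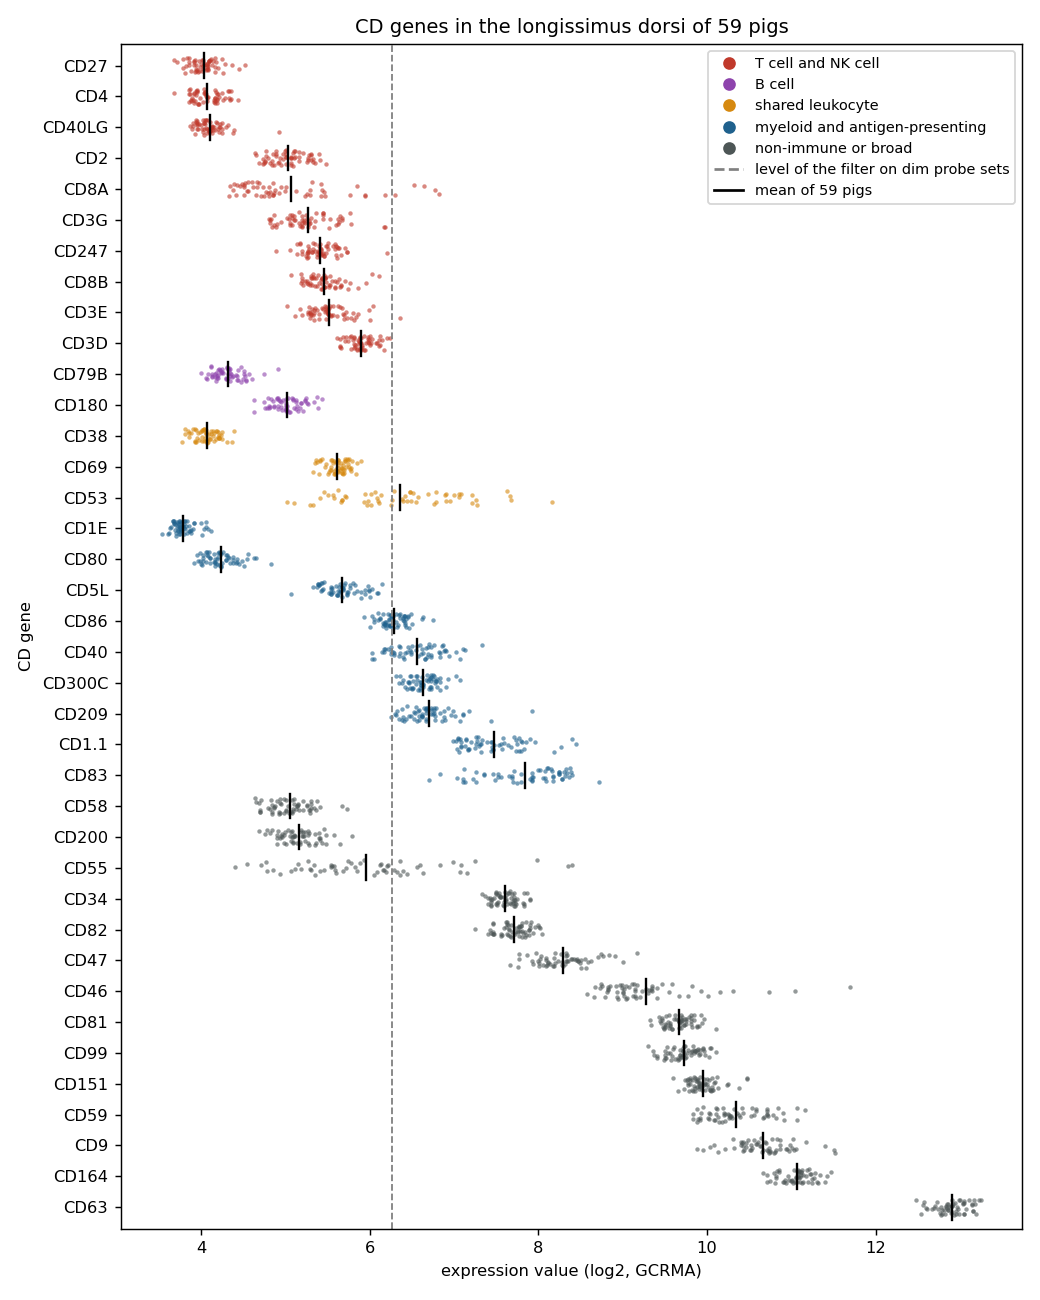
Expression value (log2, GCRMA) of each of the 38 CD genes on the horizontal axis, with 1 point per pig, grouped and coloured by class, a black bar at the mean of 59 pigs and a dashed line at the filter level. All 10 T cell and NK cell means lie left of the dashed line, and CD55, CD53, CD8A and CD46 spread most widely between pigs.

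Most CD genes varied little between pigs. The median SD over pigs was 0.197 log2 for the CD genes and 0.188 log2 for all genes. An SD of at least 0.5 log2 was reached by 4 of 38 CD genes, against 3.96% of all genes. These were CD55 with an SD of 0.87, CD53 with 0.70, CD8A with 0.65 and CD46 with 0.58 log2. CD83 with 0.46 and CD1.1 with 0.35 log2 followed. The least variable were CD1E with an SD of 0.12, CD69 with 0.13 and CD34 with 0.14 log2.

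Within the T cell genes the spread between pigs was concentrated in CD8A. CD8A encodes the alpha chain of the CD8 co-receptor, which in pigs is carried by cytotoxic T cells and also by NK cells. Its lowest, median and highest values were 4.33, 4.85 and 6.82 log2. In 49 pigs CD8A lay at or below 5.47 log2 and in the other 10 pigs at or above 5.76 log2, with pigs 28, 33, 26 and 66 the highest. CD8B, the beta chain that marks cytotoxic T cells with the alpha chain, ran from 5.07 through a median of 5.43 to 6.11 log2, and pigs 33, 66 and 28 were its highest. CD4, the co-receptor of helper T cells, ran from 3.68 through 4.05 to 4.44 log2 and showed no such upper tail. The CD4 mean of 4.07 log2 was lower than the 5.06 log2 of CD8A, and the array compresses differences of dim probe sets. A tail in CD4 could therefore be missed, and whether helper T cells vary less than CD8 cells was not tested. Pig T cells can carry CD4 and CD8 alpha together, which sets them apart from those of most mammals.

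The chains of the receptor complex varied less. CD3G ran from 4.80 through 5.22 to 6.19 log2, with pigs 41 and 33 above the other 57. CD3E ran from 5.02 through 5.51 to 6.36 log2, and the same pigs 41 and 33 were its highest. CD3D ran from 5.62 through 5.89 to 6.24 log2 and CD247 from 4.89 through 5.41 to 6.21 log2, and neither had pig 41 or 33 at its top. The adhesion receptor CD2 lay between 4.64 and 5.49 log2, the co-stimulatory receptor CD27 between 3.68 and 4.52 log2, and CD40LG, the ligand by which helper T cells engage CD40, between 3.87 and 4.92 log2. In bulk muscle, fewer T cells and less RNA per T cell cannot be told apart, and the same holds for every cell type named here.

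Whether the CD genes followed T and NK cell content was asked with a score, the mean of standardised values of 9 marker genes outside the CD naming scheme (CCL5, GZMH, IL2RG, IL7R, KLRK1, LAT, LCK, PRF1 and SH2D1A), scaled to an SD of 1 over pigs. Since only 1 of these genes passed the filter, the limma slopes on this score were fitted over all 23988 probe sets, with Benjamini-Hochberg adjustment over them and a threshold of 0.05. Of the 38 CD genes 11 rose with the score and 0 fell, against 3.51% and 1.83% of all probe sets that did so (5.34% in either direction). The median slope of the 38 genes was 0.04 log2 per SD of the score, and that of all probe sets was 0.01. Of the T cell and NK cell genes 7 of 10 rose, of the shared leukocyte genes 2 of 3, of the B cell genes 1 of 2, of the myeloid and antigen-presenting genes 1 of 9 and of the non-immune or broad genes 0 of 14.

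Among the called genes CD8A had the steepest slope, 0.49 ± 0.06 log2 for each SD of the score (SE, limma adjusted p = 7.3e-09). CD3G followed with 0.24 ± 0.03 (adjusted p = 1.8e-09), CD3E with 0.18 ± 0.02 (adjusted p = 1.1e-07) and CD8B with 0.15 ± 0.02 (adjusted p = 1.3e-07). These 4 genes, both CD8 chains and a pair of CD3 chains, stayed past the threshold under all 11 alternative settings. CD2 rose by 0.11 (adjusted p = 0.0044), CD247 by 0.09 (adjusted p = 0.020) and CD3D by 0.08 log2 per SD (adjusted p = 0.0011). CD4 had a slope of 0.05 (adjusted p = 0.12), CD40LG one of 0.04 (adjusted p = 0.19) and CD27 one of 0.04 (adjusted p = 0.27), so these 3 T cell genes did not pass. CD4 passed with the mean of its probe sets (0.05, adjusted p = 0.032), with the macrophage score in the model (0.10, adjusted p = 0.00031) and with the interferon score in it (0.12, adjusted p = 0.00038). With probe sets averaged, 13 of 38 CD genes were called, and so were 2172 of the 20686 genes and unnamed probe sets tested. With the macrophage score in the model 19 of 38 were called, against 31.9% of all probe sets. For the interferon score these were 15 of 38 and 28.4%. CD4 did not pass after each array was centred on its median. No test of the difference between CD8A and CD4 was run.

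Outside the T cell class 4 genes were called, with slopes of at most 0.07. CD180, a Toll-like receptor relative of B cells, rose by 0.07 log2 per SD (adjusted p = 0.041), CD86 by 0.07 (adjusted p = 0.032), the NAD-degrading ectoenzyme CD38 by 0.06 (adjusted p = 0.031) and the early activation antigen CD69 by 0.05 (adjusted p = 0.039). Each of these 4 calls ended when 1 of several single pigs was left out, and without pig 41 alone the count was 7 of 38. CD53 had a slope of 0.22 ± 0.09 (SE, limma adjusted p = 0.10), which lay between those of CD3G and CD3E and did not pass. Without pigs 5, 36 and 52 it was 0.29 ± 0.08 (adjusted p = 0.024), while CD69 lost its call (adjusted p = 0.062). The count was again 11 of 38, against 2.3% of all probe sets. The mean of the probe sets below the filter, which ran from 4.60 to 4.74 log2 between arrays, moved with this score. With that mean as a covariate 8 of 38 CD genes were called, against 1.58% of all probe sets, and 5 of the 10 T cell genes remained: CD3D, CD3E, CD3G, CD8A and CD8B. CD8A then had a slope of 0.61 ± 0.05 (adjusted p = 1.5e-14). After quantile normalisation 7 of 38 were called, against 1.53% of all probe sets, and after centring each array on its median 6 of 38, against 1.86%. The T cell genes CD2, CD3D, CD3E, CD3G, CD8A and CD8B were called under both.

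**Figure D2:**
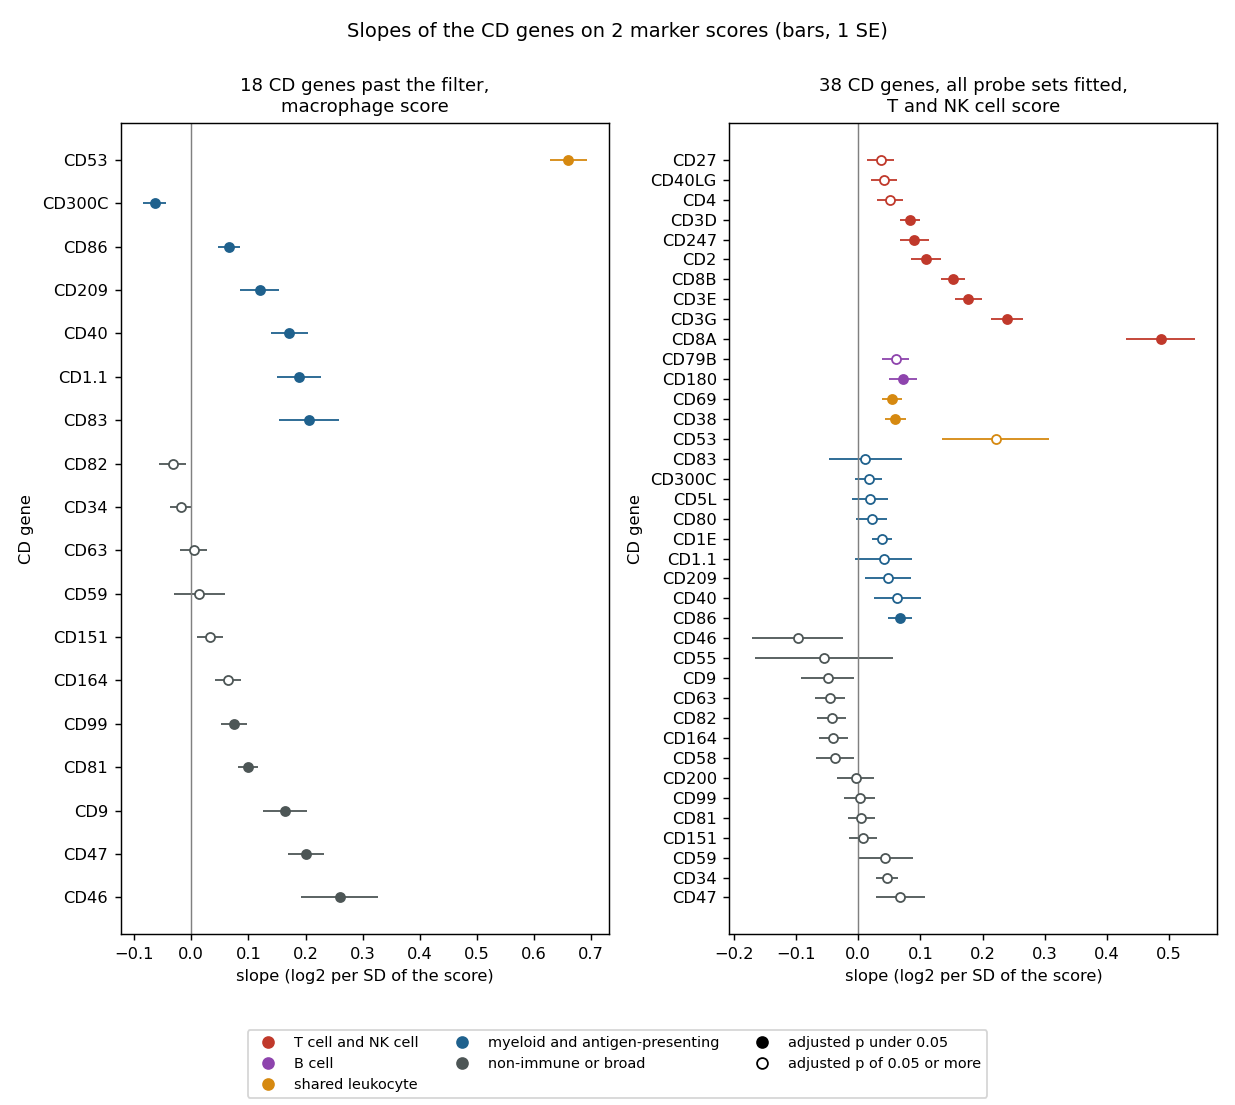
Slopes of CD genes in log2 per SD of a score, with bars of 1 SE, on the macrophage score (left, the 18 genes past the filter) and on the T and NK cell score (right, all 38 genes), coloured by class, with filled points for an adjusted p under 0.05. CD53 stands apart on the left at 0.66 and CD8A on the right at 0.49.

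The B cell genes were dim in every pig. CD79B, a signalling chain of the B cell receptor, ran from 4.01 through 4.31 to 4.91 log2 and CD180 from 4.62 through 5.01 to 5.44 log2, and pig 41 was the highest for both. Among the genes shared by leukocytes, CD38 lay between 3.77 and 4.39 log2 and CD69 between 5.33 and 5.90 log2.

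CD53, a tetraspanin restricted to leukocytes, behaved differently from those genes. Its values ran from 5.02 through a median of 6.38 to 8.17 log2, with pigs 36, 41, 63 and 52 the highest, and 31 of 59 pigs lay above the filter level. The macrophage score, built from AIF1, C1QA, C1QC, CD163, CTSS, FCER1G, LAPTM5, MRC1, TYROBP and VSIG4, was used to ask which CD genes rose with macrophage content. CD53 rose by 0.66 ± 0.03 log2 for each SD of the score (SE, limma adjusted p = 5.2e-25), the steepest slope of the 18 CD genes past the filter. Without pigs 5, 36 and 52 the CD53 slope was 0.61 ± 0.03 (adjusted p = 7.7e-24).

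**Figure D3:**
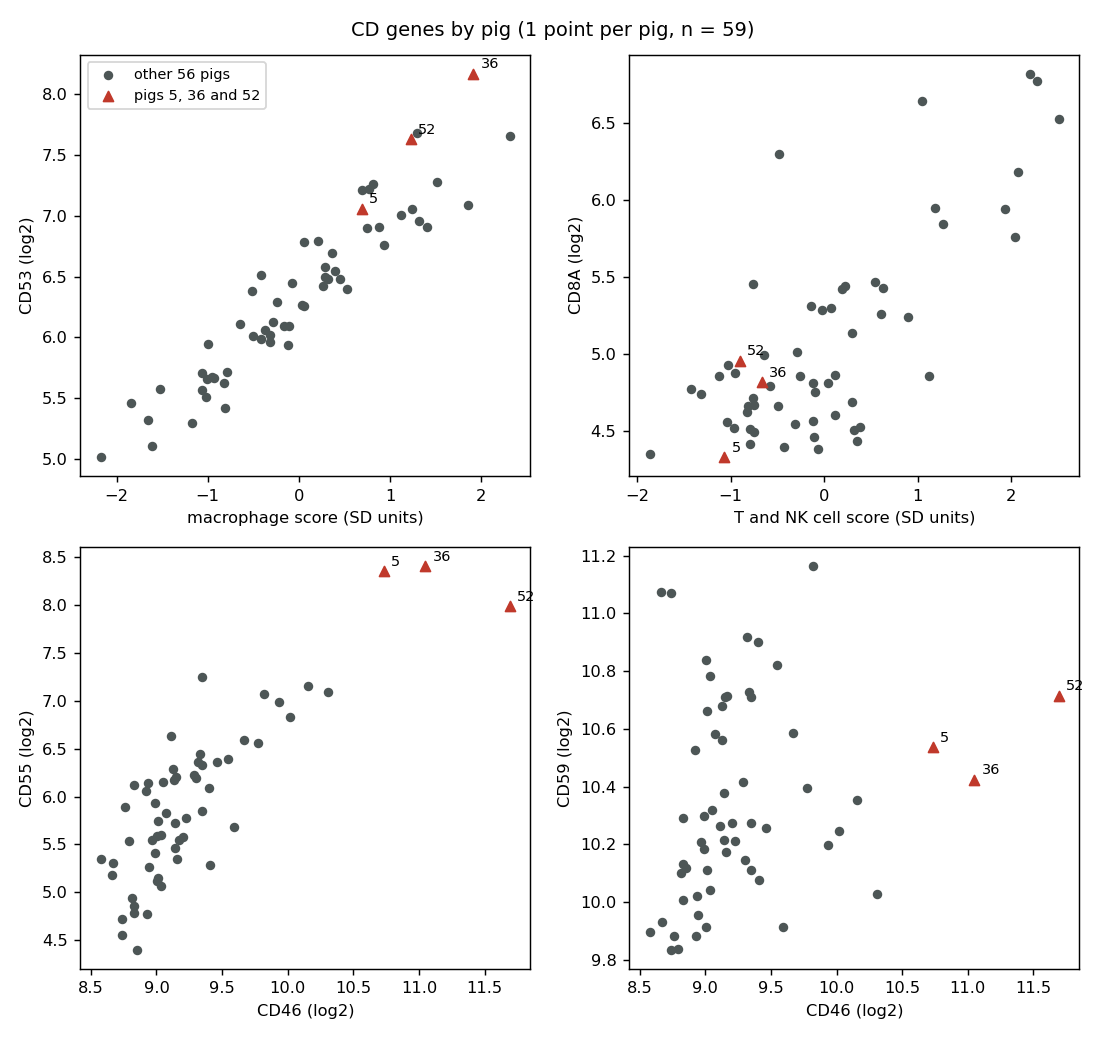
Values of single pigs (1 point per pig), with pigs 5, 36 and 52 as red triangles: CD53 against the macrophage score, CD8A against the T and NK cell score, CD55 against CD46, and CD59 against CD46, all genes in log2. CD53 climbs with the macrophage score throughout its range, while pigs 5, 36 and 52 lie at the top of CD46 and CD55 and inside the range of the other pigs for CD59.

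Of the 18 CD genes past the filter, 12 were called on the macrophage score (11 rose and 1 fell), against 9.93% of all probe sets past the filter (7.22% rose and 2.7% fell). The median slope was 0.09 log2 per SD for the 18 genes, and 0.00 for all probe sets. Every one of the 6 myeloid and antigen-presenting genes past the filter was called, 5 of them upward, and of the 11 non-immune or broad genes 5 rose. Without pigs 5, 36 and 52 the count was 7 of 18, against 5.44% of all probe sets: CD53, CD47, CD40, CD81, CD1.1, CD83 and CD9 kept their calls. Without pig 36 alone it was 9 of 18. With the mean of the probe sets below the filter as a covariate 10 of 18 were called, against 4.62% of all probe sets, and the calls of CD83 and CD300C ended. With the interferon score as a covariate 10 of 18 were called, against 17.4%. There the calls of CD40, CD86 and CD300C ended and CD164 was added with a slope of 0.10, while the slopes of CD46 and CD9 were 0.41 and 0.25.

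Among the co-stimulatory genes, CD83, a marker of mature dendritic cells, ran from 6.71 through 7.93 to 8.72 log2. It rose by 0.21 ± 0.05 log2 for each SD of the macrophage score (SE, limma adjusted p = 0.0060), and by 0.17 with the mean of the dim probe sets as a covariate (adjusted p = 0.070). CD40, the receptor through which T cells license antigen-presenting cells, ran from 6.03 through 6.57 to 7.34 log2 and rose by 0.17 ± 0.03 (adjusted p = 7.0e-05). With the interferon score in the model the CD40 slope was 0.11 ± 0.04 (adjusted p = 0.056). CD86, which engages CD28 and CTLA4 on T cells, stayed between 5.94 and 6.75 log2. Its slope was 0.07 (adjusted p = 0.018), and the call ended without pig 36 (adjusted p = 0.061) and with the interferon score in the model (adjusted p = 0.15). CD80, the other ligand of the same receptors, was dim, between 3.92 and 4.83 log2, with a slope of -0.05 (adjusted p = 0.19) in the fit over all probe sets.

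CD1 molecules present lipids to T cells. CD1.1, a pig CD1 gene, ran from 6.99 through 7.44 to 8.44 log2, and pigs 36, 52 and 41 were its highest. It rose by 0.19 ± 0.04 log2 for each SD of the macrophage score (SE, limma adjusted p = 0.00040) and by 0.14 ± 0.04 without pigs 5, 36 and 52 (adjusted p = 0.010). CD1E, which in human cells helps to load lipids inside the cell, stayed between 3.53 and 4.11 log2.

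The receptors for sugars and other ligands went different ways. CD209, a C-type lectin of dendritic cells and macrophages, ran from 6.25 through 6.67 to 7.93 log2, with pig 5 at the top and the next pig at 7.44. It rose by 0.12 ± 0.03 log2 per SD (SE, limma adjusted p = 0.016), and by 0.09 without pigs 5, 36 and 52 (adjusted p = 0.056). CD300C, an activating receptor of myeloid cells, ran from 6.32 through 6.63 to 7.07 log2 and was the only 1 of the 12 called genes that fell, by 0.06 log2 per SD (adjusted p = 0.030). That call ended when any 1 of 6 single pigs (9, 35, 36, 42, 46 or 49) was left out. CD5L, a secreted scavenger protein of tissue macrophages, lay between 5.07 and 6.15 log2, with a slope of -0.05 (adjusted p = 0.27) in the fit over all probe sets.

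The 3 complement regulators protect host cells from their own complement. CD46 is a cofactor for the cleavage of deposited C3b, CD55 speeds the decay of C3 convertases, and CD59 blocks the membrane attack complex. CD46 ran from 8.58 through a median of 9.13 to 11.69 log2, with pigs 52, 36 and 5 at 11.69, 11.05 and 10.73 log2. CD55 ran from 4.40 through 5.85 to 8.40 log2. The same pigs held 7.99 (pig 52), 8.40 (pig 36) and 8.35 log2 (pig 5), while the other 56 pigs lay at or below 7.25 log2. CD59 ran from 9.84 through 10.27 to 11.16 log2, and its highest pigs were 45, 46 and 49.

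CD46 and CD55 varied together over the 59 pigs, with Pearson's r = 0.84 (permutation p = 1e-05, the smallest that 100000 resamples can give, adjusted p = 6.3e-05) and Spearman's rho = 0.77. This held when pigs 36 and 52, the farthest from the CD46 median, were left out, with r = 0.81, and without pigs 5, 36 and 52, with r = 0.76. CD55 has 5 probe sets. The others correlated with the one used here at 0.90, 0.70, 0.14 and 0.11, with SDs of 0.62, 0.26, 0.14 and 0.16 log2 in that order. For CD46 and CD59, r was 0.22 (permutation p = 0.086, adjusted p = 0.14), while rho was 0.36 (adjusted p = 0.0098), so this pair passed by rank and not by r. With the first principal component of the arrays removed it passed by r among the 5 pairs, with r = 0.28 (adjusted p = 0.042). CD55 and CD59 gave r = 0.25 (permutation p = 0.058, adjusted p = 0.092), with rho = 0.32 (adjusted p = 0.029).

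CD46 rose by 0.26 ± 0.07 log2 for each SD of the macrophage score (SE, limma adjusted p = 0.0062), but by 0.14 ± 0.05 without pigs 5, 36 and 52 (adjusted p = 0.076). CD55, below the filter, rose by 0.51 ± 0.09 (adjusted p = 4.0e-05) in the fit over all probe sets, in which 15 of 38 CD genes were called, against 5.71% of all probe sets. CD59 had a slope of 0.01 (adjusted p = 0.90). Beside these values, pig 36 was second of 59 on the macrophage score, pig 52 ninth and pig 5 in place 16. The part that these pigs' arrays play in the CD46 and CD55 values was not tested beyond leaving them out.

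Beside CD53, the 5 more broadly expressed tetraspanins all passed the filter. CD63, a protein of lysosomes and exosomes, ran from 12.47 through 12.91 to 13.26 log2. CD9, which with CD81 takes part in the control of myoblast fusion in mice, ran from 9.89 through 10.66 to 11.52 log2, with pigs 52 and 36 the highest. CD81, a partner of integrins and immune receptors, stayed between 9.33 and 10.11 log2 around a median of 9.68. CD151, which binds laminin-binding integrins, lay between 9.59 and 10.48 log2, and CD82, a marker of human muscle stem cells, between 7.26 and 8.04 log2.

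Of these 5, CD9 and CD81 rose with the macrophage score. The CD9 slope was 0.16 ± 0.04 log2 per SD (SE, limma adjusted p = 0.0019), and the CD81 slope was 0.10 (adjusted p = 2.9e-05). CD151, CD63 and CD82 had slopes of 0.03, 0.00 and -0.03 (adjusted p = 0.40, 0.96 and 0.42). CD81 and CD151 varied together over pigs, with r = 0.47 (permutation p = 0.00011, adjusted p = 0.00055) and rho = 0.46, and r = 0.38 without pigs 19 and 47, which were farthest from the median of CD81. CD9 and CD81 gave r = 0.41 (permutation p = 0.0012, adjusted p = 0.0029), with rho = 0.37, and r = 0.39 without pigs 36 and 52. After quantile normalisation CD9 and CD81 gave r = 0.30 (adjusted p = 0.060), which ended the call. CD63 and CD81 gave r = 0.20 (permutation p = 0.12, adjusted p = 0.15), with rho = 0.17. With the first principal component of the arrays removed this pair passed, with r = 0.31 (adjusted p = 0.025).

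Among the adhesion proteins and ligands, CD47, which signals to macrophages not to engulf the cell that carries it, ran from 7.66 through 8.28 to 9.17 log2, with pigs 36 and 52 the highest. It rose by 0.20 ± 0.03 log2 for each SD of the macrophage score (SE, limma adjusted p = 2.0e-06) and by 0.17 ± 0.03 without pigs 5, 36 and 52 (adjusted p = 1.4e-05). CD99, an adhesion protein of leukocyte passage through vessel walls, stayed between 9.31 and 10.11 log2. Its slope was 0.08 (adjusted p = 0.022), and the call ended without pig 36 (adjusted p = 0.063). CD58, the ligand of CD2 in humans, lay between 4.65 and 5.73 log2, and CD200, whose receptor restrains myeloid cells, between 4.69 and 5.79 log2. CD34, found on vessel walls and progenitor cells, lay between 7.34 and 7.90 log2, and the sialomucin CD164 between 10.66 and 11.47 log2. Their slopes on the macrophage score were -0.02 (adjusted p = 0.62) and 0.06 (adjusted p = 0.062).

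Among the T cell and NK cell genes, CD8A, CD3G and CD3E also followed the macrophage score in the fit over all probe sets. The other genes of that class were not called. CD8A rose by 0.42 ± 0.06 log2 per SD (SE, limma adjusted p = 1.3e-06), CD3G by 0.18 ± 0.03 (adjusted p = 0.00011) and CD3E by 0.12 ± 0.03 (adjusted p = 0.0034). With the T and NK cell score in the same model 19 of 38 CD genes were called, against 28.7% of all probe sets. CD8A kept a slope of 0.25 ± 0.05 on the macrophage score (adjusted p = 0.00044) and CD3G one of 0.09 ± 0.03 (adjusted p = 0.015), and CD3E had one of 0.05 ± 0.02 (adjusted p = 0.15). In the converse fit, the slopes on the T and NK cell score with the macrophage score in the model were 0.37 ± 0.05 for CD8A (adjusted p = 6.1e-06), 0.20 ± 0.03 for CD3G (adjusted p = 1.7e-06) and 0.16 ± 0.02 for CD3E (adjusted p = 1.4e-05). CD53 had a slope of -0.10 ± 0.04 on the T and NK cell score in that fit (adjusted p = 0.054), against 0.22 without the macrophage score. Adding the macrophage score raised the share of all probe sets called on the T and NK cell score to 31.9%, and 19 of 38 CD genes were called. Among these, CD46, CD55, CD9, CD81 and CD164 fell.

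A score of 7 interferon response genes past the filter asked which CD genes move with interferon signalling, which raises antigen presentation. Of 18 CD genes 3 rose, against 1.93% of all probe sets past the filter. These were CD53 with a slope of 0.45 ± 0.07 log2 per SD (SE, limma adjusted p = 4.4e-06), CD47 with 0.19 ± 0.03 (adjusted p = 6.2e-05) and CD40 with 0.17 ± 0.03 (adjusted p = 0.00016). With the macrophage score in the model the slopes were 0.04 for CD53 (adjusted p = 0.60), 0.10 for CD47 (adjusted p = 0.12) and 0.10 for CD40 (adjusted p = 0.097), so the 3 calls ended. In that fit 1 of 18 CD genes was called, CD63, which fell, against 6.54% of all probe sets. In the fit without the filter 7 of 38 CD genes rose, against 1.76% of all probe sets, and these included CD8A with 0.47 ± 0.06 (adjusted p = 9.9e-09), CD3G with 0.22 ± 0.03 (adjusted p = 8.7e-08) and CD3E with 0.17 ± 0.02 (adjusted p = 3.1e-07). CD4 had a slope of -0.02 (adjusted p = 0.76).

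The extracellular matrix score, of 13 genes past the filter such as collagens, was followed by 5 of 18 CD genes, all upward, against 8.96% of all probe sets past the filter that rose (12.8% in either direction). CD81 had a slope of 0.12 ± 0.02 log2 per SD (SE, limma adjusted p = 9.9e-08), CD99 one of 0.10 ± 0.02 (adjusted p = 0.00081) and CD151 one of 0.07 ± 0.02 (adjusted p = 0.010). CD47 with 0.11 (adjusted p = 0.035) and CD209 with 0.10 (adjusted p = 0.044) lay close to the threshold. The CD47 call ended without any 1 of 5 single pigs and the CD209 call without any 1 of 19, the CD151 call ended without pig 19, and the count was 3 of 18 without pig 16, 36 or 68. Without pigs 5, 36 and 52 it was 7 of 18, against 17.0% of all probe sets, and the added genes were CD34 and CD59. The median slope with all pigs was 0.08 log2 per SD for the 18 genes and -0.01 for all probe sets.

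Counts for the scores of other cells and states follow, each beside the share of all probe sets. Whether these counts differ from those shares was not tested. On the endothelial score 0 of 18 CD genes were called by limma, against 2.48% of all probe sets past the filter, and 2 had an unadjusted p under the same threshold: CD209 with a slope of 0.10 (adjusted p = 0.16) and CD34 with 0.04 (adjusted p = 0.31). On the adipocyte score 1 of 18 was called, CD34 with 0.05 ± 0.02 log2 per SD (adjusted p = 0.030), against 15.8% of all probe sets, and this ended without pig 19 or 58. Without pigs 5, 36 and 52 CD34, CD209 and CD81 were called on it, 3 of 18 against 14.5%. With all pigs the largest slopes on that score were those of CD59 with 0.09 (adjusted p = 0.16) and CD209 with 0.09 (adjusted p = 0.086), neither of them called. On the fatty acid oxidation score 1 of 18 was called, CD151, which fell by 0.07 log2 per SD (adjusted p = 0.039), against 8.72% of all probe sets. Leaving out pig 21, 31, 36, 43, 48 or 72 ended that call, and without pigs 5, 36 and 52 the count was 0 of 18, against 5.99%, with 5 at an unadjusted p under the threshold. CD53 had the largest slope there in size, -0.12 ± 0.09 (adjusted p = 0.44).

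The immediate early score, of genes such as FOS that rise within minutes of stress or handling, was followed by CD46 with 0.22 ± 0.07 log2 per SD (SE, limma adjusted p = 0.017) and CD9 with 0.12 ± 0.04 (adjusted p = 0.028). That was 2 of 18 CD genes (11.1%), while 20.2% of probe sets past the filter were called in either direction and 1214 of 11987 rose. The count therefore does not set the CD genes apart from other probe sets. Pig 36 was the highest of all 59 on this score. The CD46 call ended without pig 36 (adjusted p = 0.12), the CD9 call ended without pig 36, 37, 43, 47 or 52, and without pigs 5, 36 and 52 the count was 0 of 18, against 5.21% of all probe sets, with 0 at an unadjusted p under the threshold.

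Pairs of CD genes known as chains of a complex, receptor and ligand, or relatives were compared over pigs, 5 pairs among genes past the filter and 19 with dim genes included, with p-values adjusted within each family. Of the 5 pairs 2 passed, both of tetraspanins. Of the 19 pairs 9 passed, and 5 of these were T cell pairs. CD3E and CD3G gave r = 0.68 (permutation p = 1e-05, adjusted p = 6.3e-05), with rho = 0.61. CD3E and CD8A gave r = 0.62 (permutation p = 1e-05, adjusted p = 6.3e-05), with rho = 0.57. Without pigs 33 and 41, the farthest from the median of CD3E, these were r = 0.55 and r = 0.56. Pigs 41 and 33 were the highest for CD3E and CD3G, and pig 33 was second for CD8A.

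CD8A and CD8B, which are neighbouring genes in the Sscrofa11.1 RefSeq annotation, gave r = 0.56 (permutation p = 3e-05, adjusted p = 0.00014) with a lower rho of 0.33, and r = 0.41 without pigs 28 and 33. CD3D, which lies next to CD3G and CD3E in that annotation, gave r = 0.42 with CD3G (permutation p = 0.0012, adjusted p = 0.0033, rho = 0.45) and r = 0.38 with CD3E (permutation p = 0.0034, adjusted p = 0.0081, rho = 0.39). Without pigs 43 and 67, the farthest for CD3D, these were r = 0.48 and r = 0.40. CD247 and CD3E gave r = 0.28 (permutation p = 0.035, adjusted p = 0.065, rho = 0.25), and CD2 and CD3E gave r = 0.27 (permutation p = 0.037, adjusted p = 0.065, rho = 0.24). CD4 gave r = 0.23 with CD3E (permutation p = 0.078, adjusted p = 0.11, rho = 0.18) and r = -0.03 with CD8A (permutation p = 0.83, adjusted p = 0.88, rho = -0.08).

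The remaining pairs were those of antigen-presenting cells and of receptors with their ligands. CD80, CD40LG, CD2 and CD58 lay below the filter, which limits how far a low r can be read. No test compared these pairs with the T cell pairs. CD80 and CD86 gave r = 0.30 (permutation p = 0.019, adjusted p = 0.039) with rho = 0.26 (adjusted p = 0.077). Without pigs 41 and 43 r was 0.16 (adjusted p = 0.29), which ended the call. With all pigs and the mean of the dim probe sets removed from both genes, r was 0.20 (adjusted p = 0.18), which also ended it. CD40 and CD86 gave r = 0.11 (permutation p = 0.39, adjusted p = 0.39 over 5 pairs), and by rank rho = 0.05, CD40 and CD40LG r = -0.03 (permutation p = 0.81, adjusted p = 0.88) and rho = -0.00, and the receptor and ligand CD2 and CD58 r = 0.02 (permutation p = 0.89, adjusted p = 0.89) and rho = 0.06. With the mean of the dim probe sets of each array removed from both genes, 7 of the 19 pairs passed. CD3E with CD3G gave r = 0.67 and CD8A with CD8B r = 0.67 there, and CD9 with CD81 r = 0.26 (adjusted p = 0.11).

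**Figure D4:**
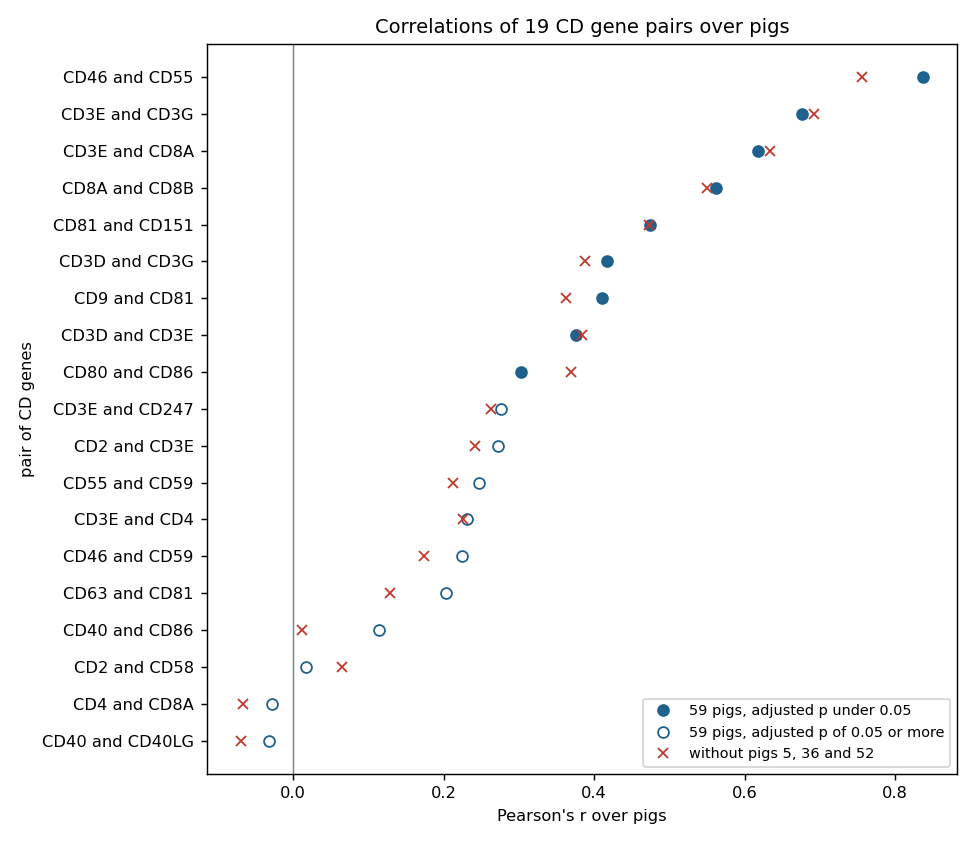
Pearson's r over pigs for 19 pairs of CD genes, from all 59 pigs (circles, filled for an adjusted p under 0.05) and without pigs 5, 36 and 52 (red crosses). CD46 with CD55 is at 0.84 and CD3E with CD3G at 0.68, and the pairs of CD40 with CD40LG and of CD4 with CD8A lie near 0.

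With dim probe sets included, the remaining scores gave these counts. On the adipocyte score 1 of 38 was called, against 3.64% of all probe sets: CD247, with a slope of 0.13 ± 0.02 log2 per SD (SE, limma adjusted p = 2.4e-05). On the extracellular matrix score 5 of 38 rose, and 1363 of 23970 probe sets rose (8.65% were called in either direction). Among the 5, 2 were dim genes, CD55 with 0.36 ± 0.10 (adjusted p = 0.014) and CD247 with 0.09 ± 0.02 (adjusted p = 0.011). On the endothelial score CD200 rose by 0.11 ± 0.03 (adjusted p = 0.016) and CD80 by 0.09 ± 0.02 (adjusted p = 0.040). That was 2 of 38, and 271 of 23970 probe sets rose (1.4% were called in either direction). On the immediate early score 4 of 38 rose, and 1254 of 23984 probe sets rose (9.98% were called in either direction). The dim genes among the 4 were CD55 with 0.34 ± 0.10 (adjusted p = 0.022) and CD58 with 0.09 ± 0.03 (adjusted p = 0.027), whose highest pigs were 5 and 37. On the fatty acid oxidation score 0 of 38 were called by limma, against 3.95%, and 8 had an unadjusted p under the threshold.

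Probe sets of the same gene did not always move together. Of the 14 CD genes with several probe sets, 6 had one that correlated below 0.3 with the probe set used. The lowest such correlations were -0.05 for CD164, 0.11 for CD80, 0.11 for CD55, 0.13 for CD5L, 0.16 for CD300C and 0.23 for CD247. The probe sets of CD53, CD46 and CD59, in contrast, correlated with the one used at 0.79, 0.73 and 0.73 at the lowest.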

How the data were processed

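The authors deposited a normalised table, read here as log2 values and made with GCRMA per the submitters' processing notes. Its version and the log base are not given in the sources used here. Values ran from 2.39 to 15.04 and array medians from 6.23 to 6.30. Precision is set by how many arrays there are. Of 24123 probe sets 124 were controls; 10099 had 1 gene symbol in the platform annotation, 198 several and 13826 none. The brighter 12000 non-control probe sets, by their mean over arrays, were tested.

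A score was the mean of its list's standardised log2 values, scaled to an SD of 1. Slopes of every probe set were fitted with limma (lmFit and eBayes), leaving out the score's own genes, with Benjamini-Hochberg adjustment over all probe sets tested and a threshold of 0.05. The T and NK cell score, planned with the filter, needed at least 3 genes past it and was fitted on all probe sets. Pairs were tested with two-sided permutation tests of 100000 resamples. The members, classes, lists and pairs were chosen with earlier results of these data known. The scripts were tested on simulated data.

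Named genes followed a rule: every CD gene was accounted for, statistics were given per score for up to 8 called genes in each direction (the 2 largest slopes where fewer than 3 were called), the 6 most and 3 least variable genes, every pair tested, and genes with discordant probe sets. CD81, CD99 and CD86 fell outside the 8 largest on the macrophage score and were chosen after their values were seen. Alternatives covered the filter, averaging a gene's probe sets, quantile normalisation, centring on array medians, leaving out pigs, the first principal component as a covariate or as the score, eBayes with trend and robust options, and covariates. The software was limma 3.58.1 under R 4.3.3, then scipy 1.17.1, pandas 2.3.3, numpy 2.4.6 and matplotlib 3.10.9 under Python 3.11.15. Sequences of these genes were not used here.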

Additional observations from a re-analysis of the deposited data

How the results depend on the processing

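Counts of CD genes called moved as follows. Without pigs 5, 36 and 52 the macrophage count was 7, against 12 with all pigs, the adipocyte count 3 against 1, the fatty acid oxidation count 0 against 1 and the immediate early count 0 against 2. With dim probe sets included the counts were 7 against 3 for interferon, 2 against 0 for endothelial (CD200 and CD80), 0 against 1 for fatty acid oxidation, and 4 against 2 for immediate early. For macrophage it was 15 of 38, and 19 of 38 when the T and NK cell score was also a covariate, against 12 of 18. On the T and NK cell score 11 genes were called, against 7 after quantile normalisation, 6 after centring, 6 with the list's first principal component as the score and 19 with the macrophage score as a covariate. With the list's first principal component 352 of 23988 probe sets were called. The interferon count was 1 with the macrophage score as a covariate: CD63, which fell. With the array-wide first principal component as a covariate the extracellular matrix count was 10 against 5, with 1621 of 11984 probe sets called. The same covariate gave 0 for adipocyte (359 of 11996 probe sets) and 0 for immediate early (71 of 11987 probe sets). Quantile normalisation gave 2 for adipocyte (2047 of 11996 probe sets) and 3 for fatty acid oxidation (1557 of 11979). Centring gave 0 for adipocyte (1631 of 11996) and 2 for fatty acid oxidation (841 of 11979). The mean of a gene's probe sets gave 0 for fatty acid oxidation (952 of 10693). Leaving out the 2 pigs farthest from a score's median gave 0 for fatty acid oxidation (281 of 11979) and 0 for immediate early (469 of 11987). The causes were not tested.

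Of the 5 pairs 2 passed, against 1 after quantile normalisation and 4 with the first principal component removed. With dim genes included 9 of 19 passed, 10 by Spearman's rho, 11 with the first principal component removed, 7 with the dim level removed, 8 without the 2 farthest pigs and 9 without pigs 5, 36 and 52. Leaving out each pig in turn gave 9 to 13 for macrophage, 7 to 11 for T and NK cell, 3 to 3 for interferon, 0 to 1 for endothelial, 3 to 6 for extracellular matrix, 0 to 3 for adipocyte, 0 to 3 for fatty acid oxidation, 0 to 3 for immediate early, and 2 to 2 of the 5 pairs. For 54 single slopes and correlations, 414 of 498 alternative values kept their side of the threshold, 76 lost the call, 5 gained it, and 3 correlations without a call changed sign. None of the 54 changed sign where it had been called. Alternatives marked by pigs 5, 36 and 52, by the dim level and by other scores as covariates were chosen after seeing the data.

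No paired analysis was possible because all arrays belong to 1 group. Nothing in the labels separates biological from technical spread beyond 1 array per pig, and the dim values of the T cell genes limit how far their spread can be read.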
